A study of Mus musculus with 7 samples.

Results

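The miR-181 family was followed across 7 mouse miRNA arrays. Its members were taken by name, as every array feature that derives from the hairpins of miR-181a, miR-181b, miR-181c and miR-181d, in any arm or star form. This gave 6 of the 696 mouse miRNAs on the array, namely miR-181a-5p, miR-181b-5p, miR-181c-5p, miR-181d-5p and the star forms miR-181a-1-3p and miR-181a-2-3p. Of these, miR-181a-5p and miR-181b-5p (miR-181a and miR-181b from here on) were among the 252 miRNAs of the normalized table, and the other 4 members were followed in the scanner signal, with miR-181d-5p also in a wider fit that kept miRNAs under the limit on some arrays.

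All arrays were made from mouse soft tissue sarcoma cells grown out of tumors of p53-knockout mice, so every group lacked p53. Control primary cells (2 arrays) carried a non-target shRNA, and Rb-depleted primary cells (2 arrays) carried a single shRNA against Rb, with selection in 2 μg/ml puromycin. Rb-depleted secondary cells (3 arrays) carried the same Rb shRNA, were collected from spheres after 10 to 14 days of non-adherent, serum-free culture, and then went through a passage on plastic. Arrays of control cells taken through sphere culture were not analysed here, so in secondary cells the shRNA and the sphere culture cannot be told apart. The arrays carry no probe for Rb mRNA, so the depletion itself was not checked here. The arrays lay on 2 slides, with all primary cells and secondary replicate 1 on slide 1 and secondary replicates 2 and 3 on slide 2.

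MiRNAs are short RNAs that guide Argonaute proteins to matching sites in mRNAs, and the seed near the 5′ end sets most of this pairing. The miR-181 family is best known in lymphocytes, where miR-181a tunes the sensitivity of the T cell receptor during thymic development. Outside blood cells it has been studied in the differentiation of myoblasts and as a family that TGF-beta can induce in carcinoma cells. The members share targets as far as they share the seed, and the 2 arms of 1 hairpin are released together but are usually retained to very different extents.

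The mature sequences are shown because the comparison of miR-181a with miR-181b rests on a few bases. They were read from RefSeq on GRCm38.p6, are written 5′ to 3′, and have the seed (bases 2 to 8) in capitals.
mmu-miR-181a-5p: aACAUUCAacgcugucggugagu
mmu-miR-181b-5p: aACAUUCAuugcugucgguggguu
mmu-miR-181c-5p: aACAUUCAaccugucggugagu
mmu-miR-181d-5p: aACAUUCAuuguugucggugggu
mmu-miR-181a-1-3p: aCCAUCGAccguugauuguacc
mmu-miR-181a-2-3p: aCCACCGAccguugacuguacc

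The 4 members of the 5p arm had 1 seed, and 0 mature miRNAs outside the family carried it among the 1679 mature names of the RefSeq table. Counting from the 5′ end, miR-181b-5p differed from miR-181a-5p by the substitutions A9U, C10U and A21G and was 1 base longer. MiR-181d-5p differed from miR-181b-5p by C12U and by lacking the last base. MiR-181c-5p equalled miR-181a-5p without the G at position 11. The star forms of the 2 miR-181a hairpins differed from each other by U5C and U16C, so that their seeds were not the same. How far a probe of 1 member also bound another member was not tested.

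In the mouse genome (build NCBIM37) the family lies in 3 pairs of hairpins. Mir181a-1 (chr1:139863032-139863118) and Mir181b-1 (chr1:139863216-139863295) lie on the plus strand with 97 bases between them and no annotated gene around them. Mir181a-2 (chr2:38708255-38708330) and Mir181b-2 (chr2:38709350-38709438) lie on the plus strand with 1019 bases between them, within an intron of Nr6a1, an orphan nuclear receptor gene of the opposite strand. Mir181c (chr8:86702762-86702867) and Mir181d (chr8:86702615-86702686) lie on the minus strand with 75 bases between them and no annotated gene around them. The hairpins of miR-181a and miR-181b are thus neighbors at both of their loci, and since their 5p arms are the same at both, the array gives 1 value for the product of both loci.

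On these 1-color arrays, each miRNA is read by 2 to 4 probes printed at 20 spots in all. A probe counted toward a miRNA only where its signal was over 3 times its scanner error, and a miRNA with no such probe was written as 0.1. Summing the probes over this limit gave the scanner's total gene signal in 4872 of 4872 values of a mouse miRNA on an array (tolerance 0.01 intensity units). MiR-181a and miR-181b were detected on 7 of 7 arrays and miR-181d-5p on 3 of 7. MiR-181c-5p, miR-181a-1-3p and miR-181a-2-3p were detected on 0 of 7.

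**Figure D1:**
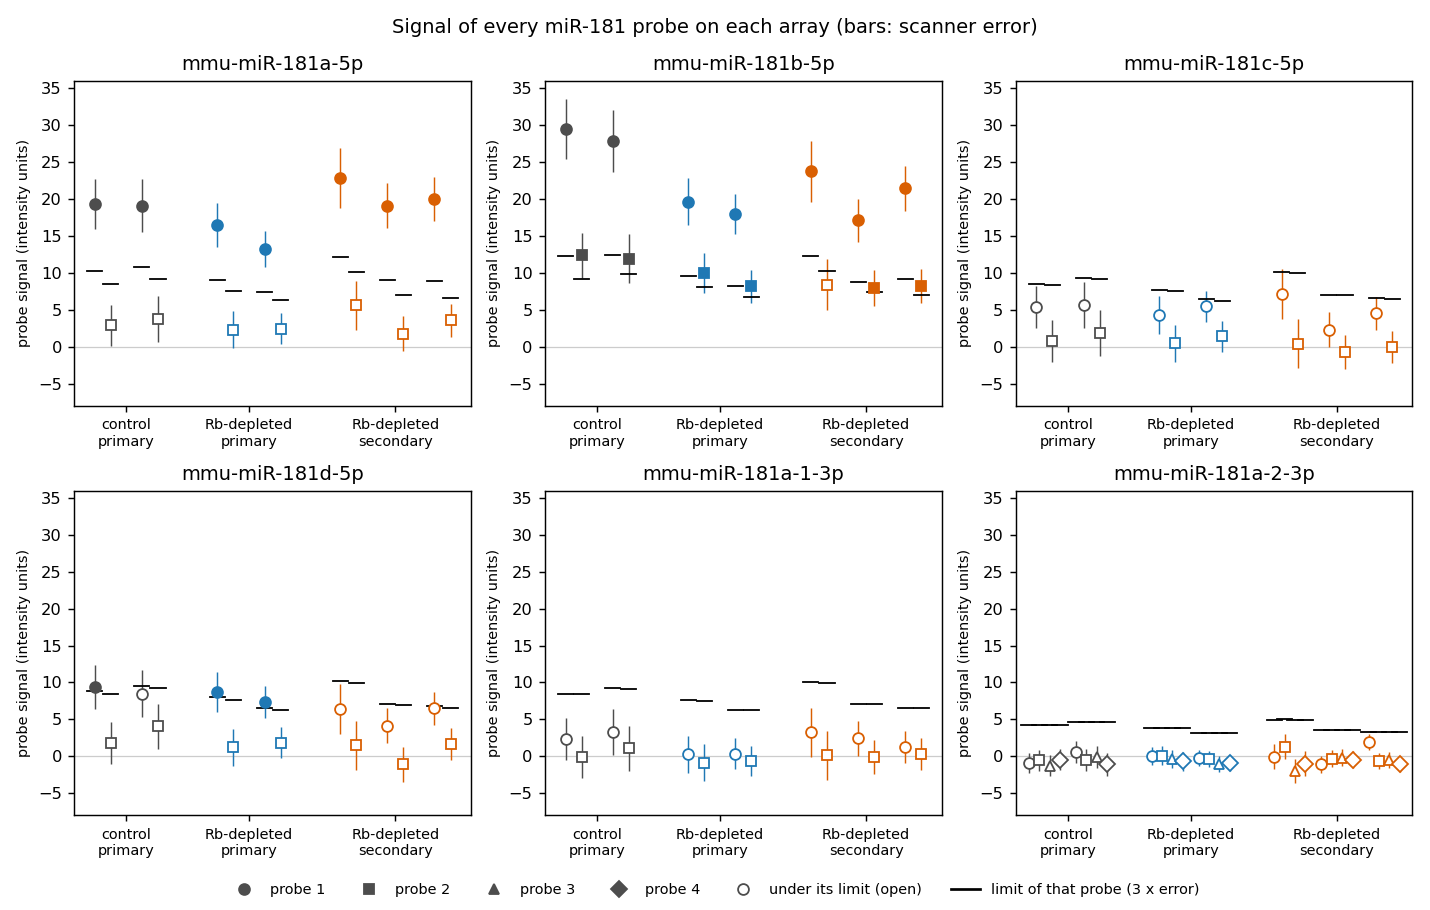
Signal of each probe (intensity units, bars are the scanner's error) on the 7 arrays for the 6 members, with closed symbols where the probe was over its own limit of 3 times its error (black line) and open symbols where it was not. Probe 1 of miR-181a and of miR-181b was over its limit on 7 of 7 arrays, whereas 0 of 14 probe values of miR-181c-5p and of miR-181a-1-3p and 0 of 28 of miR-181a-2-3p were.

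The detected members were dim. The total gene signal of miR-181a was 19.4 and 19.1 intensity units in the controls, 16.5 and 13.3 after Rb depletion in primary cells, and 22.8, 19.1 and 20.0 in secondary cells. On each array only 39 to 60 of the 258 to 287 detected mouse miRNAs were dimmer than miR-181a. The total gene signal of miR-181b was 41.9 and 39.8 in the controls, 29.7 and 26.2 after Rb depletion in primary cells, and 23.8, 25.1 and 29.7 in secondary cells. Rb-depleted primary cells lay below the controls for both members, while secondary cells overlapped the controls for miR-181a and lay below them for miR-181b. In this unnormalized signal the median log2 difference from control over the 252 miRNAs of the table was -0.26 in Rb-depleted primary and -0.46 in secondary cells. Arrays of secondary and control cells did not overlap for 73.8% of these miRNAs. For Rb-depleted primary against control cells that share was not counted. There the limma test without normalization called 27 of the 252 miRNAs lower and 0 higher, and neither member was among these. The scanner's error was between 12.2% and 18.9% of these signals. In such bulk samples, fewer cells with a miRNA and less of it per cell cannot be told apart.

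Each value of miR-181a rested on 1 of its 2 probes. Its second probe was at 1.76 to 5.59 on the 7 arrays, under limits of 6.27 to 10.1, and added nothing to the total. MiR-181b was carried by both of its probes on 6 of 7 arrays. On secondary replicate 1 the second probe of miR-181b read 8.41 against a limit of 10.3 and was left out of the total, although it read 7.99 and 8.20 on secondary replicates 2 and 3, where lower limits of 7.44 and 6.98 let it count. The total of 23.8 for miR-181b on secondary replicate 1 was therefore that of probe 1 alone. The scanner marked 1 of the 10 spots of probe 1 of miR-181b as an outlier on Rb-depleted primary replicate 1, and the spot SD there was 25.8, against 2.41 to 6.05 on the other 6 arrays.

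MiR-181d-5p, which shares its seed and all but a few bases with miR-181b, stayed near its limit. Its brighter probe read 9.42 and 8.49 in the controls, 8.70 and 7.37 after Rb depletion in primary cells, and 6.40, 4.11 and 6.48 in secondary cells. It was over its limit on control replicate 1 and on Rb-depleted primary replicates 1 and 2, and under it on control replicate 2 and on the 3 secondary arrays. The limit itself differed among arrays, from 6.60 to 10.2, and on secondary replicate 1 it was higher than the signal of this probe on any array. Secondary cells lay below both primary groups in this probe before normalization. In the total signal of the 252 miRNAs, likewise before normalization, the arrays did not overlap for 73.8% against control and 48.8% against Rb-depleted primary cells. In a limma fit over all mouse miRNAs with values under a floor of 1 raised to it (292 tested), miR-181d-5p was not called, with log2 differences of 1.13 in Rb-depleted primary against control cells (adjusted p = 0.434), -1.28 in secondary against control cells (adjusted p = 0.258) and -2.41 in secondary against Rb-depleted primary cells (adjusted p = 0.0788). MiR-181d-5p entered this fit only through arrays of primary cells, and its values on the 3 secondary arrays were all set to the floor. The fit therefore cannot test a fall of this member in secondary cells. The size of these differences depends on the floor, since undetected values were set to it, and so can their sign. Before normalization the brighter probe differed by -0.16 (log2) in Rb-depleted primary against control cells, where the groups overlapped. It differed by -0.69 in secondary against control cells and by -0.53 in secondary against Rb-depleted primary cells.

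The members without a detection call were set against their limits. For miR-181c-5p the highest probe signal was 7.19, on secondary replicate 1, and no probe reached more than 0.849 of its limit. MiR-181a-1-3p reached at most 0.357 of its limit and miR-181a-2-3p at most 0.572. The passenger arms of the miR-181a hairpins were thus not detectable on arrays that detected the 5p arm each time, and limits between 3.11 and 10.2 intensity units bound what could have been seen of these 3 members.

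After the authors' quantile normalization, which gives every array the same distribution of values, miR-181a and miR-181b parted. The deposited log2 values of miR-181a were 3.68 and 3.81 in the controls, 3.89 and 4.01 after Rb depletion in primary cells, and 4.72, 4.59 and 4.59 in secondary cells. The 3 groups did not overlap for miR-181a, and secondary cells were the highest. How many of all miRNAs had no overlap among the 3 groups at once was not counted. By pairs of groups, the share was 57.5% (Rb-depleted primary with control), 52.0% (secondary with control) and 51.2% (secondary with Rb-depleted primary). Those of miR-181b were 5.04 and 4.93 in the controls, 4.78 and 4.78 after Rb depletion in primary cells, and 4.76, 5.03 and 5.13 in secondary cells. For miR-181b the secondary cells spanned both other groups. Values of a pair of replicates that are equal here differed in the scanner signal and were made equal by the normalization. By mean level, miR-181b ranked 205 and miR-181a 230 of the 252 miRNAs.

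**Figure D2:**
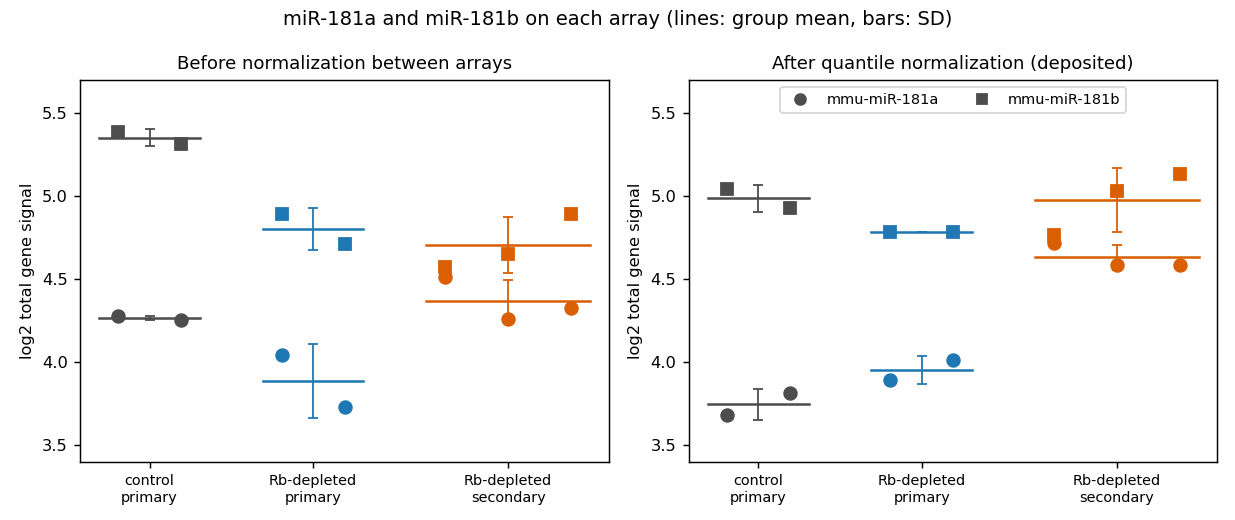
Log2 total gene signal of miR-181a (circles) and miR-181b (squares) on each array, before normalization between arrays on the left and as deposited on the right, with group means (lines) and SD (bars, n = 2, 2 and 3). Before normalization the mean of miR-181a was 4.27, 3.89 and 4.37 and that of miR-181b 5.35, 4.80 and 4.70 in the same order of groups as on the x axis. In the deposited values the means were 3.75, 3.95 and 4.63 for miR-181a and 4.99, 4.78 and 4.97 for miR-181b.

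The first question was whether the family differed among the 3 groups. In a limma fit of the deposited log2 values with 3 group means, the moderated F-test called miR-181a (adjusted p = 0.0105) and not miR-181b (adjusted p = 0.402). That is 1 of the 2 members tested, against 43.3% of the 252 miRNAs at an adjusted p under 0.1. The study's selection asked further for both Rb-depleted groups to differ from control in 1 direction by Dunnett's test. MiR-181a did not meet this, since its Dunnett-adjusted p from the limma fit was 0.139 in primary and 0.000181 in secondary cells. Neither did miR-181b, at an adjusted p of 0.313 and 0.994 by the same limma statistics. In this limma form, which is not the study's own run, the selection took 0 of the 2 members and 6.75% of all miRNAs (17 of 252). With the classical test in place of limma it took 13, again without a member. The paper reports fewer miRNAs from its own one-way analysis of variance and Dunnett's test.

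Rb depletion in primary cells gave no call in the family. MiR-181a averaged 3.75 ± 0.09 (SD, n = 2) in control and 3.95 ± 0.08 (SD, n = 2) in Rb-depleted primary cells, a log2 difference of 0.21 (SE 0.098, 95% interval -0.04 to 0.45, limma adjusted p = 0.261). MiR-181b averaged 4.99 ± 0.08 in control and 4.78 in both Rb-depleted primary arrays, a difference of -0.20 (SE 0.14, 95% interval -0.55 to 0.14, limma adjusted p = 0.407). The arrays of the 2 groups did not overlap for either member, as for 57.5% of all miRNAs in this comparison. The test called 0 of 2 members and 1.59% of all miRNAs, and 64 miRNAs had an unadjusted p under 0.05. The sign for miR-181a depended on the scaling, since without normalization between arrays it was -0.38, at a median of -0.26 over the 252 miRNAs, and with each array scaled to its 75th percentile it was -0.14.

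Rb-depleted secondary cells had more miR-181a than control primary cells in the deposited values. MiR-181a averaged 4.63 ± 0.08 (SD, n = 3) in secondary cells, 1.84-fold the level in control cells (log2 difference 0.88, SE 0.090, 95% interval 0.66 to 1.11, limma adjusted p = 0.00640). MiR-181b averaged 4.97 ± 0.19 (SD, n = 3), with a log2 difference from control of -0.01 (SE 0.13, 95% interval -0.33 to 0.30, limma adjusted p = 0.960). The test thus called 1 of 2 members, where 22.6% of all miRNAs were called in either direction and 13.1% as higher. This balance of 33 higher and 24 lower turned with the scaling, to 9 higher and 20 lower at the 75th percentile and 5 higher and 109 lower without normalization. The arrays of the groups did not overlap for miR-181a, as for 52.0% of all miRNAs. On slide 1 alone, with 1 array of secondary cells, the difference was 0.97 for miR-181a and -0.22 for miR-181b.

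The call for miR-181a was relative to the other miRNAs of the array. Without normalization between arrays its log2 difference between secondary and control cells was 0.10 (limma adjusted p = 0.600), beside a median of -0.46 over the 252 miRNAs. In that scale it was miR-181b that fell, by 0.65 on the log2 scale (limma adjusted p = 0.0133), as one of the 43.3% of all miRNAs called lower there. Scaled to the 75th percentile, the difference was 0.55 for miR-181a (adjusted p = 0.0699). Without control replicate 1 it was 0.82 (adjusted p = 0.0616). Secondary cells also had the lower summed signal over the table, 444678 to 471685 intensity units against 538586 and 550498 in control cells, and whether the cells held less miRNA or less was labelled was not tested.

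**Figure D3:**
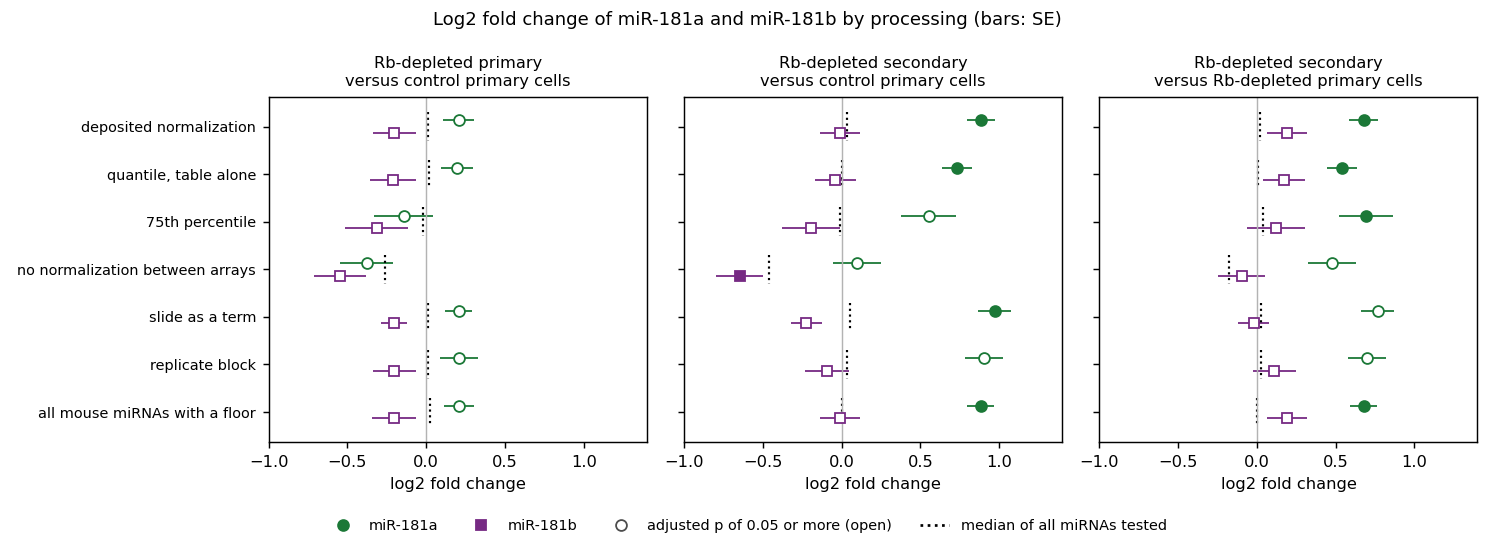
Log2 fold change (x axis, bars are the SE) of miR-181a (circles) and miR-181b (squares) in the 3 comparisons under 7 ways of processing, with closed symbols where the limma adjusted p was under 0.05 and a dotted line at the median of all miRNAs tested. In secondary against control cells, miR-181a lay at 0.88 with the deposited values and at 0.10 without normalization, and miR-181b at -0.01 and -0.65, so that miR-181a stood above miR-181b in every panel.

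Secondary cells were also compared with the primary cells that carried the same shRNA. MiR-181a was 1.60-fold higher in secondary cells (log2 difference 0.68, SE 0.090, 95% interval 0.45 to 0.90, limma adjusted p = 0.0146). MiR-181b differed by 0.19 (SE 0.13, 95% interval -0.12 to 0.51, limma adjusted p = 0.315). The test called 1 of 2 members, against 20.2% of all miRNAs in either direction and 12.7% as higher. Here too the arrays did not overlap for miR-181a, as for 51.2% of all miRNAs. The difference for miR-181a kept its direction without normalization, at 0.48 (adjusted p = 0.0655), where the arrays did not overlap for it or for 48.8% of all miRNAs, and on slide 1 alone, at 0.77. With slide as a term in the fit the call was lost, at an adjusted p of 0.0548 by limma, and 0 of 252 miRNAs were called. The 32 higher and 19 lower calls among all miRNAs became 10 higher and 35 lower without normalization. Without Rb-depleted primary replicate 2 it was 0.74 (adjusted p = 0.0706).

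The 2 members were then compared with each other on each array. A factor common to the array cancels in the scanner's signal. It need not cancel in the deposited values, since quantile normalization works by rank and can itself change the gap between 2 members. In the deposited values, the log2 of miR-181a minus that of miR-181b was -1.36 and -1.12 in the controls, -0.89 and -0.77 after Rb depletion in primary cells, and -0.04, -0.44 and -0.55 in secondary cells. In the scanner's total gene signal it was -1.11 and -1.06, then -0.85 and -0.98, then -0.06, -0.39 and -0.57. Brightness is not calibrated between probes, so this gap is not a ratio of molecules. By these totals, which sum 2 probes for miR-181b on 6 arrays and count 1 for miR-181a, miR-181b was the brighter member on 7 of 7 arrays. By the brightest probe of each, without normalization, miR-181a was the brighter by 0.16 (log2) on secondary replicate 2, and the difference on the other arrays was between -0.61 and -0.06. The gap was narrowest in secondary cells in either scale. As a share of the summed signal of both, miR-181a made up 31.6% and 32.4% in the controls, 35.8% and 33.6% after Rb depletion in primary cells, and 49.0%, 43.2% and 40.3% in secondary cells.

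**Figure D4:**
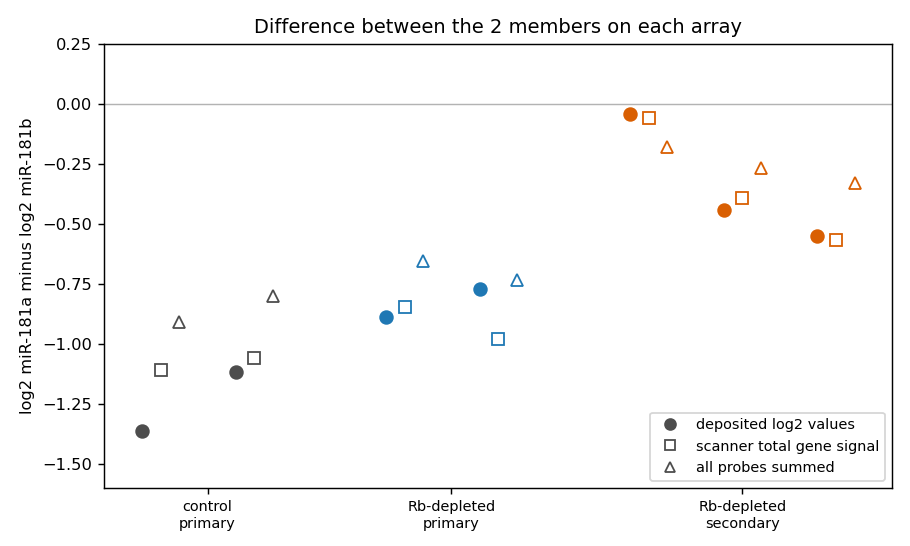
Log2 of miR-181a minus log2 of miR-181b on each array (y axis), from the deposited values (closed circles), the scanner's total gene signal (open squares) and the sum of all probes whether or not over their limits (open triangles). Secondary cells lay between -0.57 and -0.04 and control cells between -1.36 and -0.80, with no overlap of these groups in any of the 3 measures.

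The gap narrowed by 0.89 (log2, deposited values) from control to secondary cells, by 0.49 from Rb-depleted primary to secondary cells and by 0.41 from control to Rb-depleted primary cells. In 2-sided exact permutation tests these gave p = 0.1, 0.2 and 0.333, and 0.3, 0.3 and 0.333 after adjustment over the 3. With so few arrays the smallest p these tests allow is 0.1 for 3 against 2 arrays and 0.333 for 2 against 2, so none could reach 0.05. In the scanner signal the corresponding differences were 0.75, 0.57 and 0.17. With all probes summed, so that the second probe of miR-181b counted on secondary replicate 1 as well, they were 0.60, 0.44 and 0.16. The value nearest 0, on secondary replicate 1, moved from -0.06 to -0.18 when all probes were summed.

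The summed signal of miR-181a and miR-181b was 61.2 and 58.9 in the controls, 46.2 and 39.5 after Rb depletion in primary cells, and 46.6, 44.3 and 49.7 in secondary cells. The Rb-depleted groups overlapped each other and lay below the controls, as did the summed signal of the whole table. As a share of that table, the pair made up between 0.00913% and 0.0112% on the 7 arrays.

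For each of the 2 members, the miRNAs with the most similar pattern were found by the root mean square difference of deposited log2 values, centered on their mean over the 7 arrays. For miR-181a these were miR-148b (0.152) and miR-362-3p (0.157), whose means in control primary, Rb-depleted primary and Rb-depleted secondary cells were 5.87, 6.01 and 6.47, and 6.12, 6.03 and 6.92. For miR-181b they were miR-26a (0.095) and miR-145 (0.13), which stayed within 10.1 to 10.3 and within 6.82 to 6.90. MiR-181b came only at rank 100 in likeness to miR-181a, with a difference of 0.408 beside a median of 0.463 over all others. MiR-181a came at rank 183 in likeness to miR-181b, for which the median over all others was lower, at 0.271. Although their hairpins are neighbors, the 2 members were not next to each other in pattern in these deposited values. Each value is for the product of both loci. How far scanner error, the probe of miR-181b left out on secondary replicate 1 or the normalization set this distance was not tested.

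Because the family has been tied to TGF-beta and to muscle differentiation, miRNAs known from these settings were counted. Of 20 miRNAs on the TGF-beta list, 14 were in the table, and 0 passed the limma test in Rb-depleted primary against control cells. Against control, 3 rose in secondary cells and 0 fell, namely miR-155, best known from immune cells (log2 difference 0.99, adjusted p = 0.0398), miR-29b, which represses collagen genes (0.52, adjusted p = 0.0106) and miR-199a-3p (0.37, adjusted p = 0.0298), at a list median of 0.15 beside 0.03 over all miRNAs. These 3 of 14 stand beside the 13.1% of all miRNAs called higher. Against Rb-depleted primary cells, 4 rose and 0 fell, led by miR-143 (0.62, adjusted p = 0.0465), miR-199a-3p (0.60, adjusted p = 0.0146) and miR-199a-5p (0.58, adjusted p = 0.0146), at a list median of 0.17 beside 0.02. These 4 of 14 stand beside 12.7% of all miRNAs. They are not independent, since miR-199a-3p and miR-199a-5p are arms of the same miRNA. The 3 named here are also among the mesenchymal markers below. Lists were counted in the deposited values only. There 32 of all miRNAs were called higher and 19 lower in this comparison, against 10 and 35 without normalization.

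Of 18 miRNAs on the list of muscle differentiation, 11 were in the table. In Rb-depleted primary against control cells 0 passed. In secondary against control cells 2 rose, miR-27b (0.66, limma adjusted p = 0.0419) and miR-29b, and 0 fell, at a median of 0.07. These 2 of 11 are near the 13.1% of all miRNAs called higher. In secondary against Rb-depleted primary cells 1 rose, miR-29b (0.30, limma adjusted p = 0.0411), and 0 fell, at a median of 0.00, beside 12.7% of all miRNAs called higher. The 2 lists share the miR-29 family, miR-24 and miR-214, so miR-29b counts in both.

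Markers of other cells were checked because the family is abundant in lymphocytes. Of 4 blood cell markers, miR-142-3p, miR-142-5p, miR-223 and miR-150, 0 were detected on any array, and likewise 0 of 7 epithelial markers. Of 2 endothelial markers, miR-126-3p was detected, at 9.84 to 10.73 in control and 7.02 to 9.10 in Rb-depleted primary cells, and on 0 of 3 arrays of secondary cells. Of 4 skeletal muscle markers, miR-206 was detected, at 46.3 to 47.0, 27.8 to 43.8 and 12.9 to 36.4 intensity units in the same order, while miR-1 and miR-133 were not. Of 7 mesenchymal markers 7 were detected on all arrays, with a summed signal of 79357 to 85684, 67618 to 78144 and 73143 to 87186, and of these 0, 1 and 3 were called higher and 0 lower in the 3 comparisons (primary with control, secondary with control, secondary with primary), beside 13.1% and 12.7% of all miRNAs called higher in the last 2. MiR-206 had its lowest value in secondary cells. MiR-126-3p was dim where it was detected, and its probe signal under the limit in secondary cells was not examined. The part of either in the results for the family was not tested.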

How the data were processed

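MiRNAs from 100 ng of total RNA (RNA integrity number 10 per the labels) were labelled with Cy3 and hybridized to mouse arrays (release 15.0). The authors deposited the scanner's intensity values for every spot, probe and miRNA (Feature Extraction 11.0.1.1 per the file headers, 10.7.3.1 per the labels) and log2 values after quantile normalization with GeneSpring for 252 mouse miRNAs, all detected on 7 of 7 arrays, and 11 control rows, which were left out. Quantile normalization of the log2 total gene signal of 718 features gave the deposited log2 values to within 3.24e-06, and all 252 names were matched to scanner names.

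The table was fitted in R 4.3.3 with limma 3.58.1 (3 group means, empirical Bayes, Benjamini-Hochberg adjustment over 252 miRNAs, thresholds 0.1 for the F-test and 0.05 for contrasts). Dunnett's test used the moderated statistics. Exact permutation tests used scipy 1.17.1 in Python 3.11.15. The fit was tested on simulated data. Precision is limited by how few arrays there are. The design text calls the replicates independent experiments. Whether these were separate tumors is not stated, so p-values measure the spread between these arrays.

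Named were every member, the 2 most similar miRNAs to each tested member, up to 3 miRNAs a list with the largest change among those past the threshold, and detected markers of other cells. The members, lists and tests were chosen with earlier results of these data known. Alternatives were other normalizations (none, 75th percentile, quantile of the table alone), all mouse miRNAs with a floor of 1 on at least 2 arrays, the replicate number as a block, slide as a term, robust moderation, the classical test and each array left out. Summing all probes and using the brightest probe were added after seeing the data. Coordinates are from GENCODE on NCBIM37, the build named by the file headers, and 10 mature names of the family were found in RefSeq, of which 6 were on the array.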

Additional observations from a re-analysis of the deposited data

Results flagged for a closer look

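The change of miR-181a against control cells differed between the 2 Rb-depleted groups. The difference was 0.68 on the log2 scale (SE 0.090, limma adjusted p = 0.0146). It is the same contrast of secondary with Rb-depleted primary cells as given above, not a further result. All 3 secondary arrays lay above both Rb-depleted primary arrays. In this comparison the arrays did not overlap for 51.2% of all miRNAs, and 20.2% were called. Both changes share the control arrays. The adjusted p ranged from 0.0124 to 0.101 over the alternatives.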

How the results depend on the processing

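The family is dim and the arrays are few, and these limit what could be seen. The count of called members in Rb-depleted primary against control cells was 0 under 19 of 19 alternatives. The within-array narrowing of the gap between miR-181a and miR-181b kept its sign in all of its alternatives. Scaling to the 75th percentile shifts both members of an array equally, so its gap had to equal that without normalization and adds no check. The narrowing was 0.52 to 1.02 from control to secondary cells and 0.20 to 0.59 from Rb-depleted primary to secondary cells. From control to Rb-depleted primary cells it was 0.14 to 0.53, and the groups overlapped at the lowest value (all probes summed, quantile normalization of the table). The other counts changed with the processing. In secondary against control cells the count was 1 and became 0 after scaling to the 75th percentile and under the replicate block, and leaving out single arrays gave 0 to 1, the 0 without control replicate 1. In the 3 unnormalized scales (the scanner's total, all probes summed, the brightest probe) it stayed 1, but the member called was miR-181b in place of miR-181a. In secondary against Rb-depleted primary cells the count was 1 and became 0 in each of the 3 unnormalized scales, under the replicate block and with slide as a term, and leaving out single arrays gave 0 to 1, the 0 without Rb-depleted primary replicate 2. The 3-group count was 1 and became 2 in the 3 unnormalized scales and 0 under the replicate block. The count past the limma form of the study's selection was 0 and became 1, miR-181b, in the 3 unnormalized scales. Calls over all 252 miRNAs moved too. In secondary against control cells 57 became 29 at the 75th percentile, 4 under the replicate block and 114 to 122 unnormalized. In secondary against Rb-depleted primary cells 51 became 45 to 53 unnormalized, and 0 under the replicate block or with slide as a term. The 3-group calls rose from 109 to between 143 and 154 unnormalized and fell to 6 under the block. Those of the selection rose from 17 to between 42 and 45 unnormalized. The cause of these changes was not tested.

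Signs turned for 3 of the 6 log2 differences. That of miR-181a in Rb-depleted primary against control cells became -0.14 after scaling to the 75th percentile, -0.38 without normalization and with the brightest probe unnormalized, -0.39 with all probes summed unnormalized and -0.076 with all probes summed and quantile normalization of the table. That of miR-181b in secondary against control cells ranged from -0.091 to 0.095 when single arrays were left out and became 0.05 without control replicate 1, 0.095 without secondary replicate 1 and 0.012 with all probes summed and quantile normalization of the table. That of miR-181b in secondary against Rb-depleted primary cells became -0.10 without normalization and -0.021 with slide as a term.

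The replicate numbers were shared by number alone, with correlations of deviations between -0.14 and 0.13. With the replicate number as a block, miR-181a differed by 0.91 in secondary against control cells (limma adjusted p = 0.0695) and by 0.70 in secondary against Rb-depleted primary cells (adjusted p = 0.101), and the count of all miRNAs called fell from 57 to 4 and from 51 to 0, with 68 at an unadjusted p under 0.05 in either comparison.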
